A study of Mus musculus with 34 samples.

Results

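Mammary epithelial cells (MECs) that carried the H2BGFP reporter were sorted through a pair of gates on the surface antigens CD24 and CD29, and the RNA of the CD24+/CD29+ gate was compared with that of the CD24+/CD29lo gate. The 18 arrays were chosen by their labels alone, 9 labelled GFP+ CD24+CD29+ and 9 labelled GFP+ CD24+CD29lo, of 34 arrays in the series. The other 16 arrays held GFP- cells of the same gates, 6 of CD24+/CD29+ and 10 of CD24+/CD29lo cells, and entered a single comparison below. All groups came from 4-week-old mice of a CD1 strain backcrossed to FVB. Per the study's methods these were virgin females that carried both MMTVrtTA, the reverse tetracycline transactivator under the mouse mammary tumor virus promoter, and a tetracycline-responsive histone H2B-GFP fusion, and that received doxycycline from breeding onwards. The transactivator was active in only part of the MECs, so GFP+ marked the cells in which the transgene was switched on. Dead cells and cells with hematopoietic (CD45, Ter119) or endothelial (CD31) antigens were gated out before the sort. Neither the labels nor the methods tie the arrays to separate animals, so every p-value below measures the spread between these samples, which may be technical.

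The mammary duct is a bilayer. The outer, basal layer consists of myoepithelial cells that rest on the basement membrane and contract under oxytocin to expel milk, and cells able to rebuild a gland after transplantation lie within it. The inner, luminal layer lines the lumen, holds hormone-sensing cells and the Kit- and Elf5-expressing progenitors that give rise to milk-secreting alveoli, and seals the duct with tight junctions. CD29 is the beta1 integrin, which anchors cells to matrix and is abundant on basal cells, and CD24 is a glycosylated surface protein of epithelial cells, so the pair separates a basal from a luminal gate.

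Levels are normalized log2 signals of Illumina bead arrays, differences are the CD24+/CD29+ level minus the CD24+/CD29lo level, fitted with a term for the array set, and a gene was read at its probe of highest mean. Signals were detected (detection p under 0.05) for 26.3% to 44.4% of probes. The arrays fell into sets, samples 1 to 12 with 4 arrays of each gate and samples 13 to 34 with 5 of each. The first principal component (27.7% of the variance) separated the gates and the second (14.5%) the sets. CD24+/CD29lo array 22 stood apart from all others, with the fewest detected probes (26.3%) and a second component of -118.5 against -55.4 for the next array. No arrays held identical values, and the lowest correlation between arrays of 1 gate was 0.753. The reporter itself was detected on all 18 arrays: eGFP lay between 7.55 and 10.58 (median 10.11) in CD24+/CD29+ and between 10.29 and 11.59 (median 11.01) in CD24+/CD29lo cells. The groups overlapped slightly, and the difference of -1.20 (SE 0.33, adjusted p = 0.0189) was -0.43 in the first set and -1.81 in the second, and was not called in either set alone.

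The gates differed across a large part of the transcriptome. Of 14458 genes tested, 2348 (16.2%) passed an adjusted p of 0.05 by limma, 1198 (8.29%) higher and 1150 (7.95%) lower in CD24+/CD29+ cells, and the median difference over all genes was -0.01. By probe, 4155 of 30205 (13.8%) were called, 2138 (7.08%) higher and 2017 (6.68%) lower, and 3053 of them (10.1%) differed more than 2-fold. The values of the groups did not overlap on any array for 374 genes (2.59%) higher and 258 genes (1.78%) lower in CD24+/CD29+ cells. Without array 22 the probes called numbered 4425. These shares are the background against which the gene groups below are read. Where no gene of a list is said to be higher or lower by limma, at most 2 passed an unadjusted p of 0.05 in that direction and at most 1 the t-test that the methods name.

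The 5 largest positive differences belonged to Aoc3 (a vascular adhesion amine oxidase), the fibrillar collagen gene Col5a1, the matricellular protein gene Postn, and the smooth muscle genes Myh11 and Actg2, each over 5 on the log2 scale. Among the 15 largest negative differences were those of Ltf (lactoferrin), Csn1s1 (an alpha casein), the alveolar transcription factor gene Elf5 and Lalba (alpha-lactalbumin). Aoc3 showed the largest positive difference: its level was 11.20 to 11.91 (median 11.54) on the CD24+/CD29+ arrays and 4.46 to 7.19 (median 4.60) on the CD24+/CD29lo arrays, a difference of 6.35 (SE 0.32, adjusted p = 3.62e-10). Ltf showed the largest negative difference, at 4.55 to 7.97 (median 5.93) against 11.22 to 12.63 (median 11.93), or -5.88 (SE 0.39, adjusted p = 8.07e-09). In both genes every array of a gate lay apart from every array of the other.

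The antigens of the sort came first, since the gates were set on their proteins. Itgb1, the gene of CD29, lay at 9.90 to 10.85 (median 10.28) in CD24+/CD29+ and 8.97 to 10.18 (median 9.57) in CD24+/CD29lo cells, a difference of 0.76 (SE 0.15, adjusted p = 0.00137) with a small overlap. Cd24a lay at 8.95 to 10.72 (median 10.15) against 9.86 to 11.39 (median 10.36), and its difference of -0.48 (SE 0.16, adjusted p = 0.0483) was lost under 6 alternative settings and when any of 12 single arrays was left out. The differences of both gate antigens were thus under 1 on the log2 scale. Epcam, an epithelial adhesion molecule present in both layers, was lower in the CD24+/CD29+ gate, with a difference of -1.32 (SE 0.15, adjusted p = 3.79e-06), and detected on all 18 arrays. Of 11 surface antigens tested, 3 were higher and 4 lower: Itga6 (CD49f, the laminin-binding partner of CD29) by 1.53 and Procr (the protein C receptor) by 2.15 on the higher side, and Kit and Cd14 on the lower side beside Epcam and Cd24a. Kit, the receptor tyrosine kinase of luminal progenitors, lay at 4.42 to 6.51 (median 4.57) against 8.80 to 10.75 (median 9.85), a difference of -4.95 (SE 0.29, adjusted p = 2.66e-09) with no overlap. Cd14, a co-receptor for bacterial lipopolysaccharide, was detected on 0 of 9 CD24+/CD29+ and 9 of 9 CD24+/CD29lo arrays, and was at least 8.74-fold lower. Where a probe was detected on no array of a gate, the fold is such a bound, set against the lowest detected signal of each array. Itgb3 (CD61), Itga2 (CD49b), Cd44 and Thy1 were not called, with differences of -0.06, 0.89, -0.12 and 0.11, though 1 of 9 probes of Cd44 was called higher.

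Keratins, the intermediate filament genes that name the layers, split by gate. Of 6 basal keratins 4 were higher in CD24+/CD29+ cells and none lower. Krt14 lay at 12.47 to 13.62 (median 12.96) in CD24+/CD29+ and 5.97 to 10.15 (median 9.37) in CD24+/CD29lo cells, a difference of 4.03 (SE 0.41, adjusted p = 1.25e-06). Krt5, its pairing partner, differed by 4.00 (SE 0.36), Krt15 by 4.58 and Krt17 by 3.98, each without overlap, whereas Krt16 (1.04, adjusted p = 0.213) and Krt6a (-0.23, adjusted p = 0.665) were not called. Of 5 luminal keratins 4 were lower: Krt18 lay at 8.67 to 10.67 (median 9.48) against 12.66 to 13.48 (median 13.00), a difference of -3.49 (SE 0.24, adjusted p = 1.06e-08), and Krt8, its partner, differed by -2.38, Krt19 by -3.60 and Krt7 by -3.68. Krt23, the fifth, was higher by 1.88 (adjusted p = 0.00476), with overlapping groups. Krt14 was detected on 9 of 9 CD24+/CD29lo arrays and Krt18 on 9 of 9 CD24+/CD29+ arrays, so the leading keratin of each layer was detected in both gates. The luminal keratins' summed level was 11.03 to 12.12 in CD24+/CD29+ and 13.70 to 14.51 in CD24+/CD29lo cells, and the basal keratins' 13.65 to 14.90 against 8.23 to 11.40. In sorted bulk RNA, fewer cells of a type and less RNA per cell cannot be told apart.

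**Figure D1:**
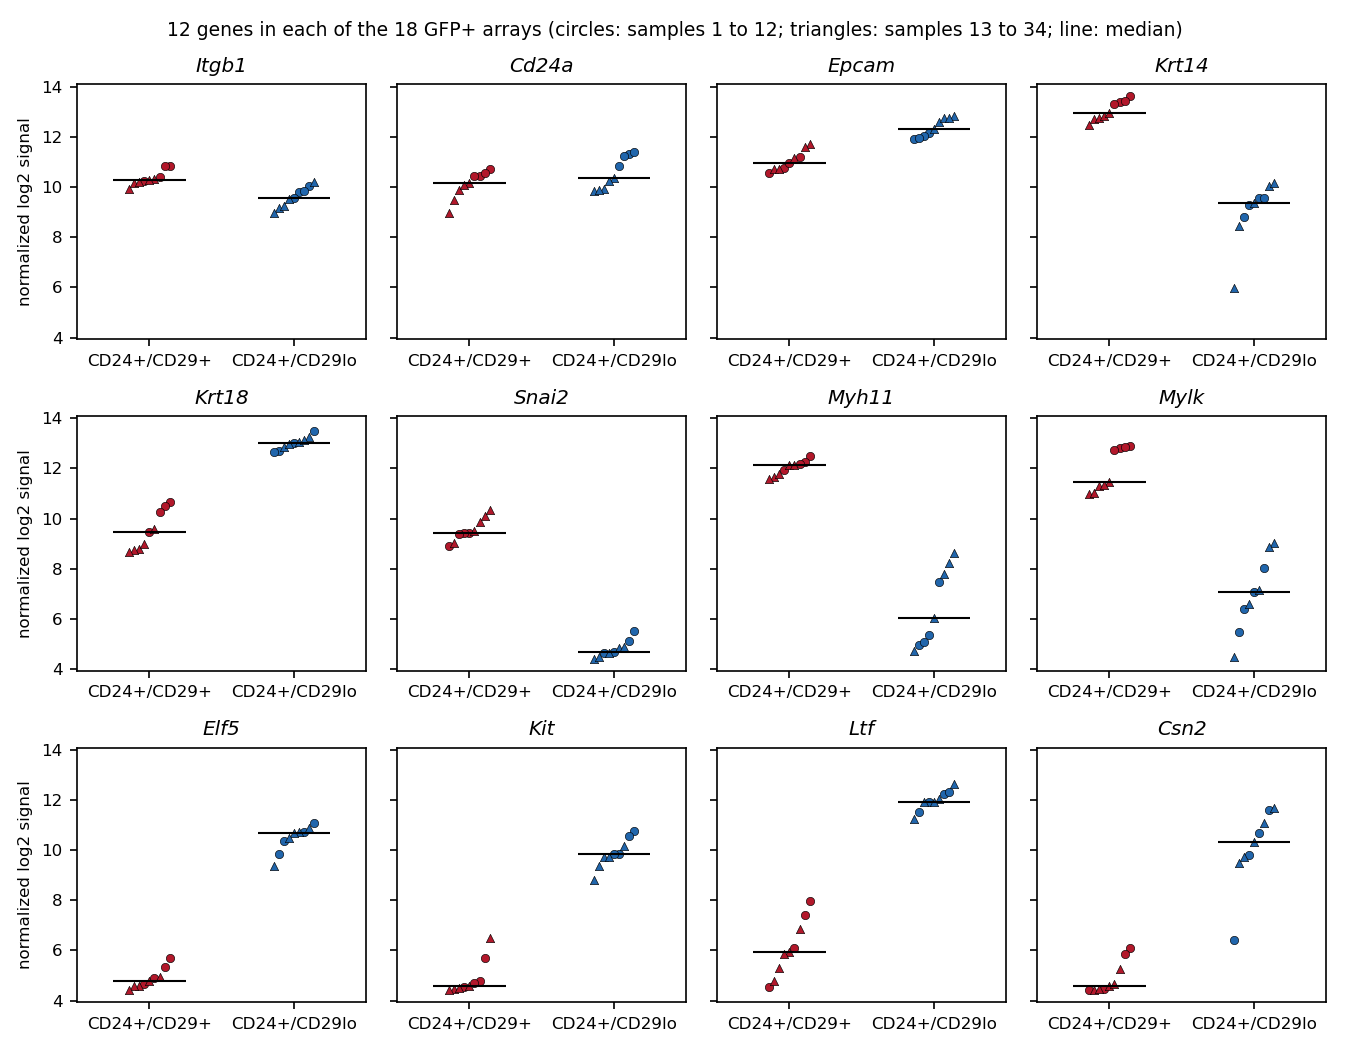
Normalized log2 signal of 12 genes on each of the 18 GFP+ arrays, 9 CD24+/CD29+ and 9 CD24+/CD29lo, with samples 1 to 12 as circles, samples 13 to 34 as triangles and lines at the medians. Itgb1 and Cd24a overlap between the gates, while Krt14, Snai2, Myh11 and Mylk lie higher, and Epcam, Krt18, Elf5, Kit, Ltf and Csn2 lower, on every CD24+/CD29+ array.

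The contractile genes of the myoepithelium rose as a group. Of 25 tested, 20 were higher in CD24+/CD29+ cells (8.29% of all genes were), none was lower, 13 did not overlap between gates, and the median difference was 2.42. Myh11, the smooth muscle myosin heavy chain, lay at 11.56 to 12.49 (median 12.13) in CD24+/CD29+ and 4.71 to 8.62 (median 6.04) in CD24+/CD29lo cells, a difference of 5.54 (SE 0.50, adjusted p = 3.19e-07). Actg2, the enteric smooth muscle actin, lay at 9.91 to 11.47 (median 11.01) against 4.39 to 7.63 (median 5.67), a difference of 5.38 (SE 0.36). The kinase that switches on smooth muscle myosin, Mylk, differed by 4.90, and its regulatory light chain, Myl9, by 4.49. All 4 were present on every CD24+/CD29+ array and dim, though mostly detected, on the CD24+/CD29lo arrays, Actg2 on only 4 of 9. Further list members, named here after their values were seen, were Acta2 (smooth muscle alpha actin), at 13.41 to 13.89 against 5.84 to 11.16 and 4.17 higher, Tagln (transgelin) at 3.20, Oxtr (the oxytocin receptor) at 2.42, Cnn2 (a calponin) at 2.66 and Vcl (vinculin) at 1.08. The level of Srf, the transcription factor that binds CArG boxes in contractile genes, was 12.19 to 13.06 against 11.79 to 13.25 and was not called (0.18, adjusted p = 0.468). The other of its 2 probes was called lower. Myocd, the smooth muscle coactivator of SRF, was detected on 1 array of each gate. The summed level of the list was 15.51 to 16.08 against 12.36 to 13.69, and array 22 was the highest of the CD24+/CD29lo arrays. Without that array the list's count was again 20.

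Promoter sequence is shown for contractile genes because so many moved together. The CArG box, the palindromic element that SRF binds, was searched in the 250 bases before each start site of RefSeq promoters (build GRCm38.p6), the same letters serving for both strands. It was found in 3 of the 21 tested contractile genes with a promoter (14.3%), and in 439 of all 27025 genes with a promoter (1.62%). A match is a description of these letters and not a bound site. The windows of Cnn2 (chr10:79988499-79988598, plus strand, box at -56 to -47 from the start), Myl9 (chr2:156775258-156775357, plus strand, box at -161 to -152) and Vcl (chr14:20929148-20929225, plus strand, box at -227 to -218) read 5′ to 3′, the box in capitals:
Cnn2: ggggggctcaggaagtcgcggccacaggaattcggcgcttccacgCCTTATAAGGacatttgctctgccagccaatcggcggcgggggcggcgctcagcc
Myl9: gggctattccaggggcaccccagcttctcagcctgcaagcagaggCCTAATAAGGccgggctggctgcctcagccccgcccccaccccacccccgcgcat
Vcl: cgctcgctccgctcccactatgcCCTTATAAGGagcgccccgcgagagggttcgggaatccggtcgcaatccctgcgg
Cnn2 and Vcl carried the same box. All 3 genes were higher in CD24+/CD29+ cells, as were 17 of the 21 contractile genes with a promoter, so their direction is that of the list.

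Basal transcription factors were higher in 8 of 16 cases and lower in none, with a median difference of 0.75. Srf, a member not called at the probe read, had its other probe called lower. Snai2 (Slug), a zinc finger repressor of epithelial genes, lay at 8.91 to 10.35 (median 9.44) in CD24+/CD29+ and 4.39 to 5.52 (median 4.69) in CD24+/CD29lo cells, a difference of 4.75 (SE 0.20, adjusted p = 5.64e-11). Trp63, the p63 gene needed for basal epithelia, lay at 8.10 to 9.91 (median 9.06) against 4.52 to 7.14 (median 5.47), a difference of 3.42 (SE 0.32), and Id4, an inhibitor of helix-loop-helix factors, was 3.68 higher. Irx4, an Iroquois homeobox gene, was detected on 9 of 9 against 0 of 9 arrays and was at least 9.57-fold higher. None of these 4 genes overlapped between gates.

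Matrix genes followed the same direction. Of 17 basement membrane genes 15 were higher in CD24+/CD29+ cells and none was lower (median 2.47), with 9 called in the second array set alone. Col17a1, a transmembrane collagen of hemidesmosomes, differed by 4.43, the network collagens Col4a2 and Col4a1 by 4.37 and 4.06, and Col7a1, the anchoring fibril collagen, by 4.21. Matricellular genes, whose products modulate cell-matrix contact, were higher in 10 of 17 cases (median 2.87) and lower in none at the probe read. Of those not called there, Ccn1 had 2 of 3 probes called lower and Matn2 1 of 2 called higher. Postn (periostin) lay at 11.65 to 12.60 (median 12.12) against 4.48 to 9.19 (median 6.46), a difference of 5.69 (SE 0.49, adjusted p = 1.73e-07). Spon2 (4.68), Fstl1 (4.61) and Igfbp3, an insulin-like growth factor carrier (4.58), followed it. The receptors for matrix moved less uniformly, with 5 of 11 further integrins higher and 1 lower. Itga1 was higher by at least 1.75-fold and detected on 0 of 9 CD24+/CD29lo arrays. Itga9 differed by 4.68 and Itga3 by 3.08, against -1.35 (adjusted p = 0.037) for Itgb6, whose call was lost when any of 10 single arrays was left out. Itgav was called higher (1.30), but 3 of its 5 probes were called lower, so no direction is given for it.

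Caveolar genes, which build the small plasma membrane pits of contractile cells, were higher in 4 of 6 cases: Cav1 by 4.04, Cavin1 by 3.54, the dynamin-related Ehd2 by 2.05 and Cavin2 by 1.20. Matrix proteases and their inhibitors were higher in 7 of 14 cases and lower in none. Mmp2, a gelatinase, was detected on 9 of 9 against 0 of 9 arrays and at least 14.1-fold higher, and its activator Mmp14 differed by 2.41. Adamts1 differed by 3.56 and Plau (urokinase) by 2.86. Further genes among the 15 largest positive differences were the matrilin gene Matn4 (4.79), the synaptic adhesion genes Tenm2 (5.16) and Kirrel3 (4.68), Rnase4 (4.80) and Rasa3, a Ras GTPase-activating protein (4.90). All were free of overlap.

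**Figure D2:**
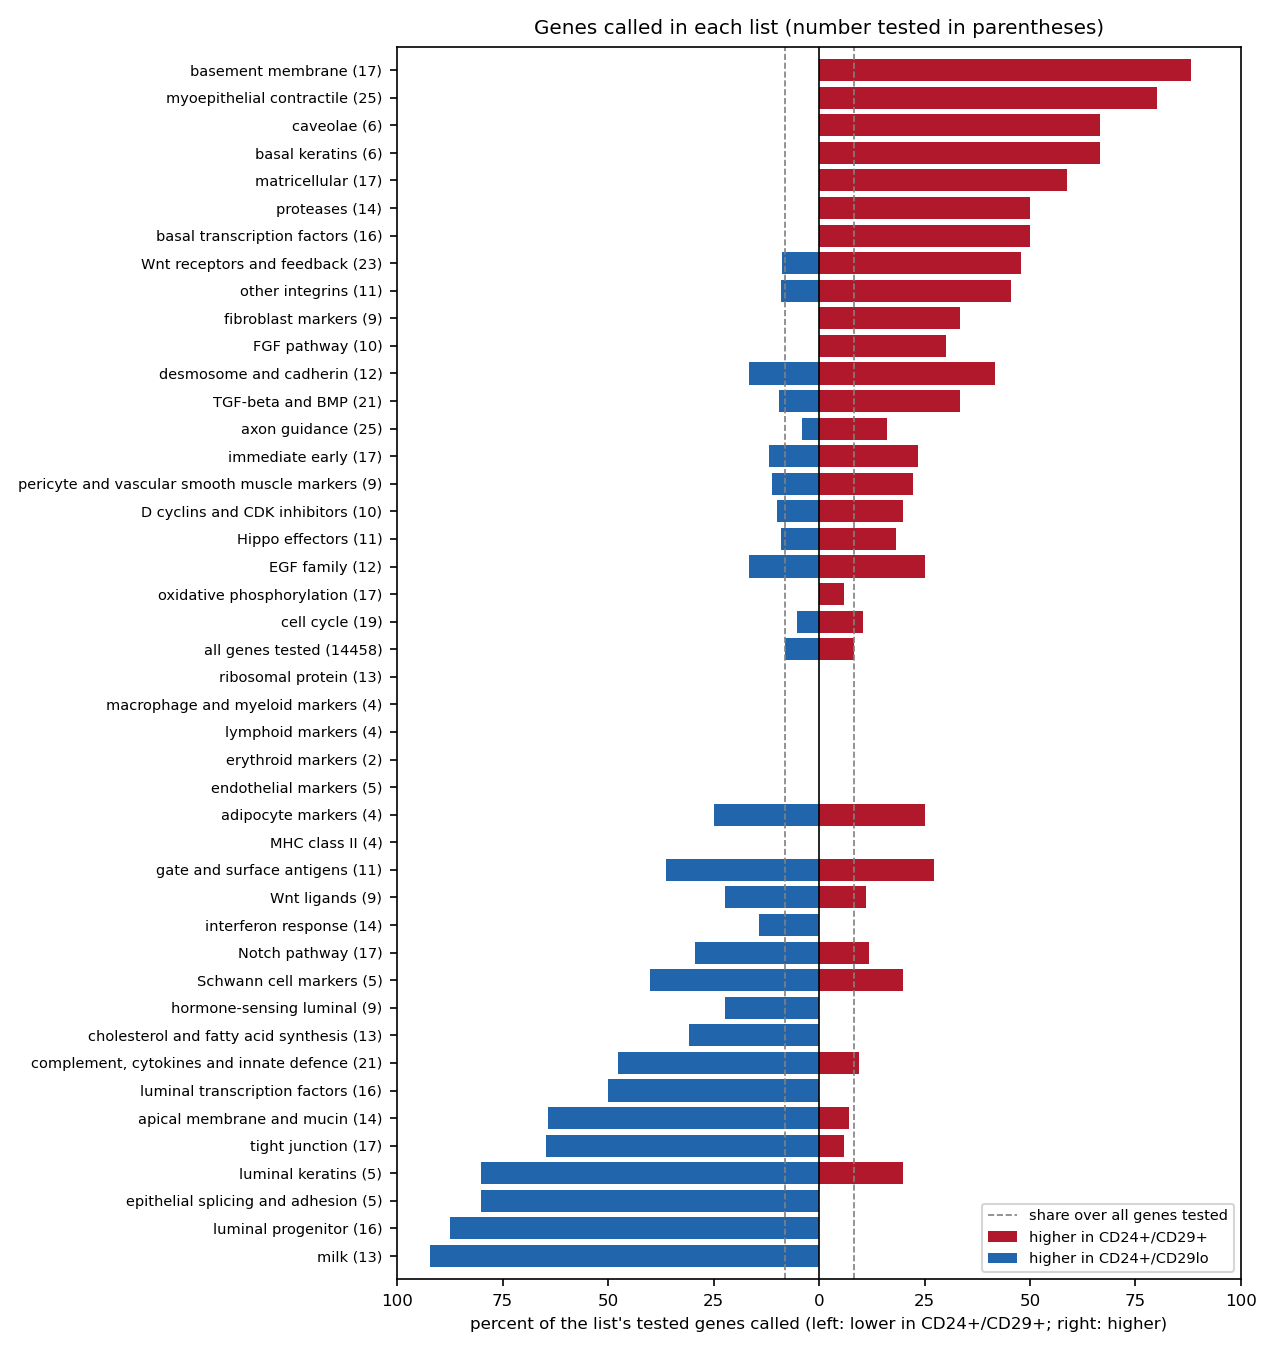
Percent of each list's tested genes (number in parentheses) called at an adjusted p of 0.05, lower in CD24+/CD29+ cells to the left and higher to the right, ordered by the balance of the directions, with dashed lines at the shares over all genes (7.95% and 8.29%). Basement membrane (15 of 17) and contractile (20 of 25) genes stand at the higher end, and milk (12 of 13) and luminal progenitor (14 of 16) genes at the lower end.

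Milk genes were lower in CD24+/CD29+ cells in 12 of 13 cases (background 7.95%), none was higher, and the median difference was -3.95. Csn1s1 lay at 4.46 to 6.82 (median 4.92) in CD24+/CD29+ and 8.32 to 11.92 (median 11.31) in CD24+/CD29lo cells, a difference of -5.75 (SE 0.45, adjusted p = 6.25e-08). Csn2, the beta casein gene, lay at 4.41 to 6.08 (median 4.61) against 6.42 to 11.69 (median 10.31), a difference of -5.17 (SE 0.56). Lalba, the lactose synthase regulator, lay at 4.44 to 6.90 (median 4.59) against 9.55 to 11.15 (median 10.14), a difference of -5.35 (SE 0.31). These milk transcripts were thus measured in glands of virgin mice, on all 9 CD24+/CD29lo arrays, and of the 3 Csn2 spanned the widest range there. Btn1a1 (butyrophilin, a milk fat globule membrane protein) differed by -5.39. Of the list members picked after their values were seen, Csn3 (kappa casein) differed by -3.95, Plin2, which coats lipid droplets, by -3.50, and Wap (whey acidic protein) was detected on 0 of 9 against 7 of 9 arrays, at least 2.28-fold lower.

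The promoters of the casein genes are printed because STAT5, the prolactin-activated factor, binds the spaced palindrome TTCNNNGAA, the same on both strands. The motif stood in the 250 bases before the start in 2 of the 9 tested milk genes with a promoter (22.2%) and in 2197 of all 27025 genes with a promoter (8.13%). The windows are those of Csn1s1 (chr5:87666063-87666161, plus strand, motif at -100 to -92) and Csn2 (chr5:87699465-87699563, minus strand, motif at -93 to -85), from RefSeq and GRCm38.p6, 5′ to 3′ with the motif in capitals:
Csn1s1: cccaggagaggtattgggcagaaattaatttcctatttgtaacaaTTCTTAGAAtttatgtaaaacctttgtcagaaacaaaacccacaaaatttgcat
Csn2: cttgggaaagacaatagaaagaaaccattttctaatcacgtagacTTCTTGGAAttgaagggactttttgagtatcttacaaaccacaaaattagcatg
Both motifs lay at nearly the same distance from the start, and both genes were lower in CD24+/CD29+ cells by more than 5 on the log2 scale. Of the 9 milk genes with a promoter 8 were lower, so their direction is that of the list.

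Luminal progenitor genes were lower in 14 of 16 cases and higher in none (median -2.07), the exceptions being Itga2 and Itgb3. Some of the 14 are also counted in other lists, such as Kit and Cd14 (surface antigens), Elf5 (luminal transcription factors) and Mfge8 (milk). Elf5, an ETS factor needed for alveolar development, lay at 4.44 to 5.69 (median 4.80) in CD24+/CD29+ and 9.37 to 11.08 (median 10.66) in CD24+/CD29lo cells, a difference of -5.58 (SE 0.22, adjusted p = 4.42e-11). Aldh1a3, a retinaldehyde dehydrogenase, lay at 4.51 to 6.79 (median 4.70) against 9.74 to 10.56 (median 10.13), a difference of -4.82. Neither gene overlapped, and both were detected on all CD24+/CD29lo arrays. Luminal transcription factors were lower in 8 of 16 cases and higher in none (median -1.11). Ehf, a further ETS factor, differed by -4.47, Tfcp2l1 by -4.00 and Grhl1, a grainyhead factor, by -2.72. Of 9 genes of hormone-sensing cells 2 were lower and none was higher (median -0.08), and Foxa1, Tnfsf11, Greb1 and Prom1 were detected on at most 2 of 18 arrays, too few to measure a difference. Stc2 (stanniocalcin) differed by -4.12 and Esr1, the estrogen receptor alpha gene, by -1.50 (adjusted p = 0.0416), a call that was lost when any of 11 single arrays was left out. Pgr, the progesterone receptor gene, was detected on 2 and 4 arrays and not called (0.20, adjusted p = 0.835).

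Other genes among the 15 largest negative differences were the nucleoside transporter gene Slc28a3 (-5.86), the sphingosine-1-phosphate transporter gene Spns2 (-5.28), Wfdc18, of the whey acidic protein family (-5.46), the stress response gene Nupr1 (-5.43), Esm1, a secreted proteoglycan (-5.20), and Bglap2, an osteocalcin gene (-5.14), none with overlap. Galnt15, a glycosyltransferase that starts O-linked sugars, was detected on 0 of 9 against 9 of 9 arrays and was at least 29.9-fold lower. Dcpp1, a secreted glycoprotein gene, differed by -5.41 but ranged from 5.43 to 13.33 among the CD24+/CD29lo arrays, overlapping the CD24+/CD29+ values of 4.39 to 8.30.

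The junctions that seal the luminal sheet were lower in CD24+/CD29+ cells. Of 17 tight junction genes 11 were lower and 1 was higher, the groups of 11 of them did not overlap, and the median was -2.44. The claudins Cldn3, Cldn23, Cldn7 and Cldn1 differed by -4.45, -4.31, -4.23 and -3.86, and Cldn12 alone was higher, by 0.83. Apical membrane and mucin genes were lower in 9 of 14 cases and higher in 1. Muc15, a membrane mucin, differed by -4.78, Rab25, a GTPase of apical recycling, by -4.37, the protease inhibitor gene Spint1 by -4.13 and the protease gene Tmprss2 by -3.16. Cdcp1, a transmembrane substrate of Src kinases, was higher by 0.88. Desmosome and cadherin genes went in both directions, 5 of 12 higher and 2 lower: Cdh3 (P-cadherin, of basal cells) by 2.83, Perp by 2.23 and Cdh13 by at least 2.43-fold on the higher side, and Pkp2 (plakophilin) by -3.07 and Cdh1 (E-cadherin) by -0.43 on the lower side. The call of Cdh1 was lost without the array set term (adjusted p = 0.627), with 75th percentile scaling (0.342), with all 34 arrays (0.168), by the methods' t-test (0.0515) and in each set alone. The RNA-binding proteins Esrp1 and Esrp2, regulators of epithelial splicing, were lower, at differences of -0.79 and -1.56.

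**Figure D3:**
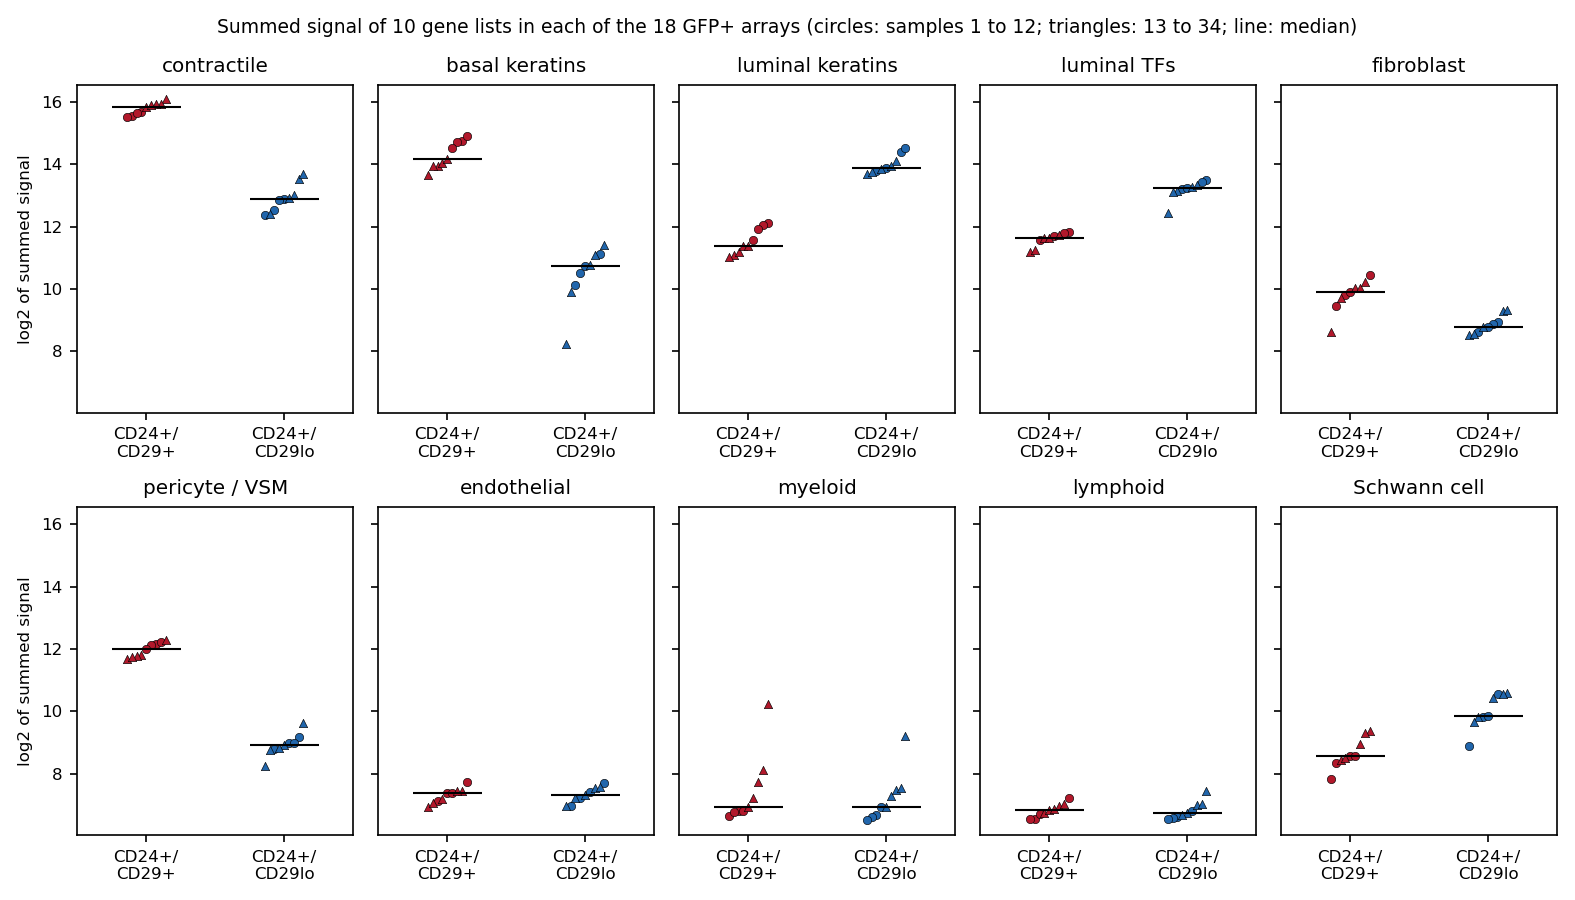
Summed level (log2 of the summed linear signal) of 10 gene lists on each of the 18 arrays, with samples 1 to 12 as circles, samples 13 to 34 as triangles and lines at the medians. The contractile list (15.51 to 16.08 against 12.36 to 13.69) and the keratin lists separate the gates, the endothelial list does not (6.92 to 7.72 against 6.97 to 7.70), and the myeloid list is high on 1 array of each gate.

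Of 4 ligand genes of the Notch pathway 2 were higher in CD24+/CD29+ cells, and of 4 receptor genes 2 were lower. In this pathway, by which neighbouring cells signal through membrane-bound ligands, the ligand genes Jag1 and Dll1 were higher, by 4.03 (SE 0.26, adjusted p = 5.59e-09) and 1.33, and 5 of 17 tested genes were lower. Jag1 lay at 8.76 to 10.05 (median 9.55) against 4.51 to 6.46 (median 5.52). The receptor gene Notch1 differed by -1.66, Notch3 was detected on 0 of 9 against 7 of 9 arrays and at least 1.70-fold lower, and the targets Hey1 and Nrarp differed by -3.36 and -1.52. Jag2 and Dll4, detected on 3 and 1 of 18 arrays, Notch2 (-0.30) and Notch4 (0.67) were not called. Hey1 lay at 6.55 to 7.77 (median 7.15) against 9.83 to 11.35 (median 10.26), with no overlap. In the EGF family, the ligand gene Nrg1 (neuregulin) and the receptor gene Egfr were higher by 3.26 and 2.54, the ligand gene Ereg (epiregulin), detected on 7 of 9 against 0 of 9 arrays, by at least 1.98-fold, and the neuregulin receptor gene Erbb3 and the ligand gene Hbegf were lower, at differences of -2.93 and -2.09, of 12 tested. The 2 neuregulin partners thus differed in opposite directions.

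Wnt receptors and feedback genes were higher in 11 of 23 cases and lower in 2 (median 0.58). The secreted inhibitors Dkk3, Sostdc1 and Wif1 differed by 4.96, 4.18 and 3.76, and the receptor gene Fzd7 by 2.66. Lgr5, an R-spondin receptor, and Axin2, a feedback target, both picked after their values were seen, were higher by 1.79 and 1.65, whereas Sfrp2 and Tcf7l2 were lower, at differences of -2.12 and -1.29. Among 9 Wnt ligands, Wnt10a was higher, at least 2.74-fold, and Wnt7b and Wnt5b lower, at differences of -2.77 and -2.11. In the TGF-beta and BMP list 7 of 21 were higher and 2 lower: the activin antagonist Fst by 4.17, the coreceptor Tgfbr3 by 3.30, Bmp7 by 3.26 and the latency protein Ltbp4 by 3.11, against -1.96 for Tgfb3 and -1.12 for Tgfb2. FGF genes were higher in 3 of 10 cases, Fgf1 (at least 3.22-fold), the receptor gene Fgfr2 (1.34) and the feedback inhibitor Spred1 (1.78). Axon guidance genes were called in 5 of 25 cases, close to the background of 16.2%, with Sema3c at 4.47, the SLIT receptor Robo1 at 4.27, its ligand Slit3 at 2.85 and Sema4d at -1.51. Of 11 Hippo effectors, Axl (4.31) and Yap1 (1.21) were higher and Tead2 lower (-1.50). Most members of these 3 lists were not called.

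Cytokine, complement and innate defence genes were lower in CD24+/CD29+ cells in 10 of 21 cases and higher in 2 (median -0.84). The neutrophil chemokine gene Cxcl2 lay at 4.39 to 9.78 (median 7.54) against 11.11 to 12.62 (median 11.53), a difference of -4.06. Lif (a gp130 cytokine) differed by -3.73, the lipopolysaccharide receptor Tlr4 by -3.69 and the lipopolysaccharide-binding protein Lbp by -3.60, beside the bound given for Cd14. The 2 genes on the higher side were the chemokine genes Cxcl14 (5.13) and Cxcl12 (3.38). Cxcl14 lay at 10.62 to 12.70 (median 11.35) against 4.72 to 9.43 (median 6.11), with no overlap. Of 14 interferon response genes, Psmb8 and Psmb9, subunits of the immunoproteasome, were lower (-1.85 and -2.16), and of 4 MHC class II genes none was called by limma, nor passed an unadjusted p of 0.05 or the methods' t-test.

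Cell cycle genes were called in 3 of 19 cases, near the 16.2% of all genes. Of them Mcm4 (0.72) and Cdc20 (1.07) were higher and Mcm6 (-0.80) lower, the last a call lost when any of 11 single arrays was left out. The call of Cdc20 was lost without the array set term, with all 34 arrays and in each set alone, and that of Mcm4 with 75th percentile scaling and in samples 13 to 34 alone. The list's summed level was 11.80 to 12.47 against 11.52 to 12.88. The D cyclins split, with Ccnd2 higher by 3.76 and Ccnd1, at 9.10 to 10.95 (median 10.15) against 11.70 to 12.93 (median 11.94), lower, at a difference of -2.08 (SE 0.23, adjusted p = 3.22e-06), and the CDK inhibitor Cdkn1c was higher by 3.02. Oxidative phosphorylation genes were called in 1 of 17 cases (Cox6c, 0.46) and ribosomal protein genes in 0 of 13 by limma, 1 passing an unadjusted p of 0.05 and 1 the methods' t-test. In the cholesterol and fatty acid synthesis list 4 of 13 were lower and none was higher, among them Scd1, the stearoyl-CoA desaturase (-3.75), Acly (-1.20) and the regulator Srebf1 (-0.94), while the fourth, Idi1 (-1.42), lost its call when any of 13 single arrays was left out. Of 17 immediate early genes 4 were higher, with Egr3 at 2.66, Klf4 at 0.99, Myc at 0.79 and Dusp1 at 0.70, and 2 lower. These were Jund (-1.31) and Klf6 (-0.48), which was 0.04 in the first array set and -0.91 in the second and lost its call when any of 9 single arrays was left out.

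Markers of other cells were read beside these groups. Of 9 fibroblast markers Dcn (2.81), Col1a2 (1.82) and Col3a1 (at least 1.33-fold) were higher in CD24+/CD29+ cells, Col3a1 not when any of 5 single arrays was left out. The list's summed level was 8.61 to 10.45 (median 9.89) against 8.51 to 9.33 (median 8.80), and Col6a1 was detected on none of the 18 arrays. Their part in the matrix gene differences was not tested. Of 9 pericyte and vascular smooth muscle markers Aoc3 and Mcam were higher and Notch3 lower. The remaining 6 were not called, and the list's median difference was 0.14. Its summed level was 11.68 to 12.30 against 8.25 to 9.61, a sum that includes Aoc3, the gene of largest positive difference. The defining pericyte genes Pdgfrb and Higd1b were detected on no array. The part of such cells in the contractile gene differences was not tested. None of 5 endothelial, 4 myeloid, 4 lymphoid and 2 erythroid markers was called by limma, and of them 1 erythroid marker passed both an unadjusted p of 0.05 and the methods' t-test. The myeloid list reached 10.23 on CD24+/CD29+ array 32 and 9.21 on CD24+/CD29lo array 23, where Aif1 stood at 10.11 and 8.93, against medians of 6.94 and 6.93. Of 4 adipocyte markers, Fabp4 was higher (2.60) and Lpl, also a milk lipid enzyme, lower (at least 4.54-fold), while Pparg was detected nowhere. Of 5 Schwann cell markers Ngfr was higher (1.35) and Sox10 (-1.69) and Erbb3 were lower, the list's summed level being 7.81 to 9.37 against 8.87 to 10.59.

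The gate difference was compared between the array sets. Of 1566 genes called within samples 1 to 12, 1508 (96.3%) had the same sign and 671 (42.8%) were also called within samples 13 to 34, where 6.87% of all genes tested in both were called. Of 925 called within samples 13 to 34, 907 (98.1%) had the same sign and 671 (72.5%) were called in the first set, against 11.6% of all. The median size of the differences was 1.87 in the first and 1.60 in the second set for the former genes. By the test of the interaction 5 of 30205 probes (0.0166%) differed between the sets, all more positive in the second. In simulated data this test found 10 of 100 set differences of log2 size 1 and 51 of 100 of size 2. Many real differences of such sizes could thus be missed. Col26a1, a collagen gene, differed between gates by -1.17 in the first set and 1.89 in the second and was detected on all 18 arrays. Gria3, a glutamate receptor gene detected on 9 of 9 CD24+/CD29+ and 0 of 9 CD24+/CD29lo arrays, was at least 5.56-fold higher over both sets, and the size of its difference within a set, set against signals not above background, is not given. The remaining 3 probes had no gene name, and their sets differed by 3.71, 3.09 and 2.23.

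**Figure D4:**
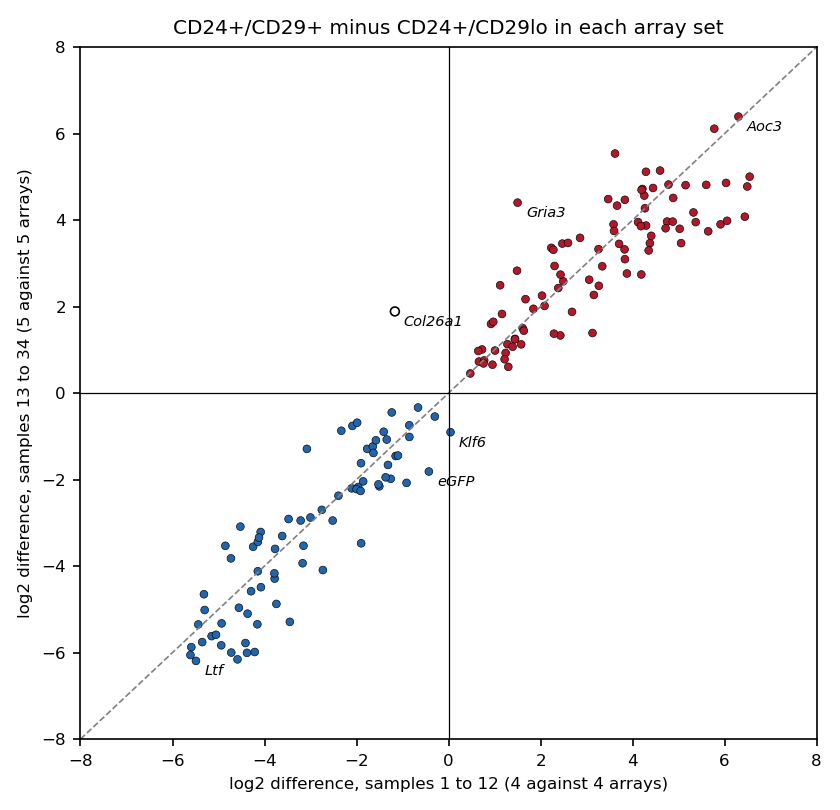
Gate difference (log2, CD24+/CD29+ minus CD24+/CD29lo) in samples 13 to 34 against that in samples 1 to 12, for the 166 named genes called over both sets, with Col26a1, not called, as a hollow point. All but Col26a1 (-1.17 and 1.89) and Klf6 (0.04 and -0.91) have the same sign in both sets, and the dashed line marks equal differences.

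The same gates were also compared in GFP- cells, to find where the difference depended on the reporter. All 6 GFP- CD24+/CD29+ arrays lay in the second set, so the first set holds no such difference. Of 35870 probes 102 (0.284%) differed between GFP+ and GFP- cells in their gate difference, 70 (0.195%) more positive and 32 (0.0892%) more negative in GFP+ cells. Within samples 13 to 34 alone 39 probes were called, and of the 102 all had the same sign there and 30 were called. Those arrays are among the 34 that chose the 102, so this agreement, here and below, is not independent support. Gjb2, the gap junction gene of connexin 26, lay at 4.53 to 5.90 (median 4.69) in GFP+ CD24+/CD29+ cells and at 8.18 or more on every array of GFP+ CD24+/CD29lo cells. In GFP- cells it lay at 6.27 to 10.94 (median 9.51) and 8.98 to 11.13 (median 9.79). Its gate difference was therefore -4.87 in GFP+ and -0.55 in GFP- cells, and these differed by -4.32 (SE 0.63, adjusted p = 0.000384).

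A second set of genes was highest in GFP- CD24+/CD29lo cells. Upk3a, a urothelial plaque protein gene, was at 8.75 to 10.64 (median 9.76) in GFP- CD24+/CD29lo cells, 4.60 to 9.32 (median 5.98) in GFP+ CD24+/CD29lo cells and 5.13 or less in both CD24+/CD29+ groups. In the CD24+/CD29+ gate no GFP- array and 1 GFP+ array had a detected signal, and the gate differences differed (3.42 as fitted, adjusted p = 0.00617). Itih2, an inter-alpha-trypsin inhibitor chain gene, was at 7.57 to 9.54 in GFP- CD24+/CD29lo cells and at 6.77 or less on all other arrays, and the chemokine gene Cxcl15 was at 6.01 to 9.79 there and at 6.26 or less elsewhere. Slc7a2, a cationic amino acid transporter gene, showed the largest positive difference of differences, 4.48 (SE 0.69, adjusted p = 0.000839), with a gate difference of 1.23 in GFP+ and -3.25 in GFP- cells. Its level was 6.03 to 9.06 in GFP+ and 4.59 to 5.58 in GFP- CD24+/CD29+ cells, without overlap. In the CD24+/CD29lo groups it was 4.58 to 7.64 and 6.62 to 9.87, with overlap. GFP+ and GFP- cells were not tested against each other within a gate. The gate differences of the claudin gene Cldn10 and the ligand gene Wnt5a also differed between GFP+ and GFP- cells, by 3.49 and 3.50. In these 6 genes the GFP- CD24+/CD29lo median was the highest of the 4 groups. Where a group was detected on no array, as for Upk3a, Itih2 and Cxcl15 in GFP- CD24+/CD29+ cells, the fitted sizes rest on signals not above background.

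On the negative side, Avpr1a, a vasopressin receptor gene, and Rgs5, a regulator of G-protein signalling found in pericytes, were raised in GFP- CD24+/CD29+ cells, at 6.21 to 9.79 (median 8.29) and 4.50 to 9.47 (median 8.66) against medians of 4.50 to 4.64 in the other groups. Their differences of gate differences were -3.63 and -3.25. Gyg (glycogenin, -3.41), Fscn2 (a fascin, -3.48) and the glutamate transporter gene Slc1a1 (-3.86, adjusted p = 0.0448) also differed. The reporter eGFP had a gate difference of -1.23 in GFP+ and 1.63 in GFP- cells (difference -2.85, adjusted p = 0.004): it lay at 4.57 to 5.07 in GFP- CD24+/CD29lo and 4.85 to 7.41 in GFP- CD24+/CD29+ cells. Of these named genes, Gjb2, Itih2, Cxcl15 and Slc7a2 were also called within the second set alone. Among the signalling genes above, picked after their values were seen, Jag1 differed between gates by 4.11 in GFP+ and 1.31 in GFP- cells (difference 2.80, adjusted p = 7.6e-05) and Robo1 by 4.36 and 1.17 (difference 3.18, adjusted p = 0.000126), both also called within the second set. Fgfr2, picked likewise, differed by 1.37 in GFP+ and -0.62 in GFP- cells (difference 1.99, adjusted p = 0.00157). Cav1, Cd14, Csn3 and Slc28a3 were also called, with the larger gate difference in GFP+ cells, and Esr1 and Foxa1 with the larger in GFP- cells. The Esr1 call was at a probe other than the one read above. At that probe the gate difference in GFP+ cells was -0.46 and not called by limma (adjusted p = 0.255). Foxa1 was detected on no CD24+/CD29+ array, so its fitted sizes rest on signals not above background.

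**Figure D5:**
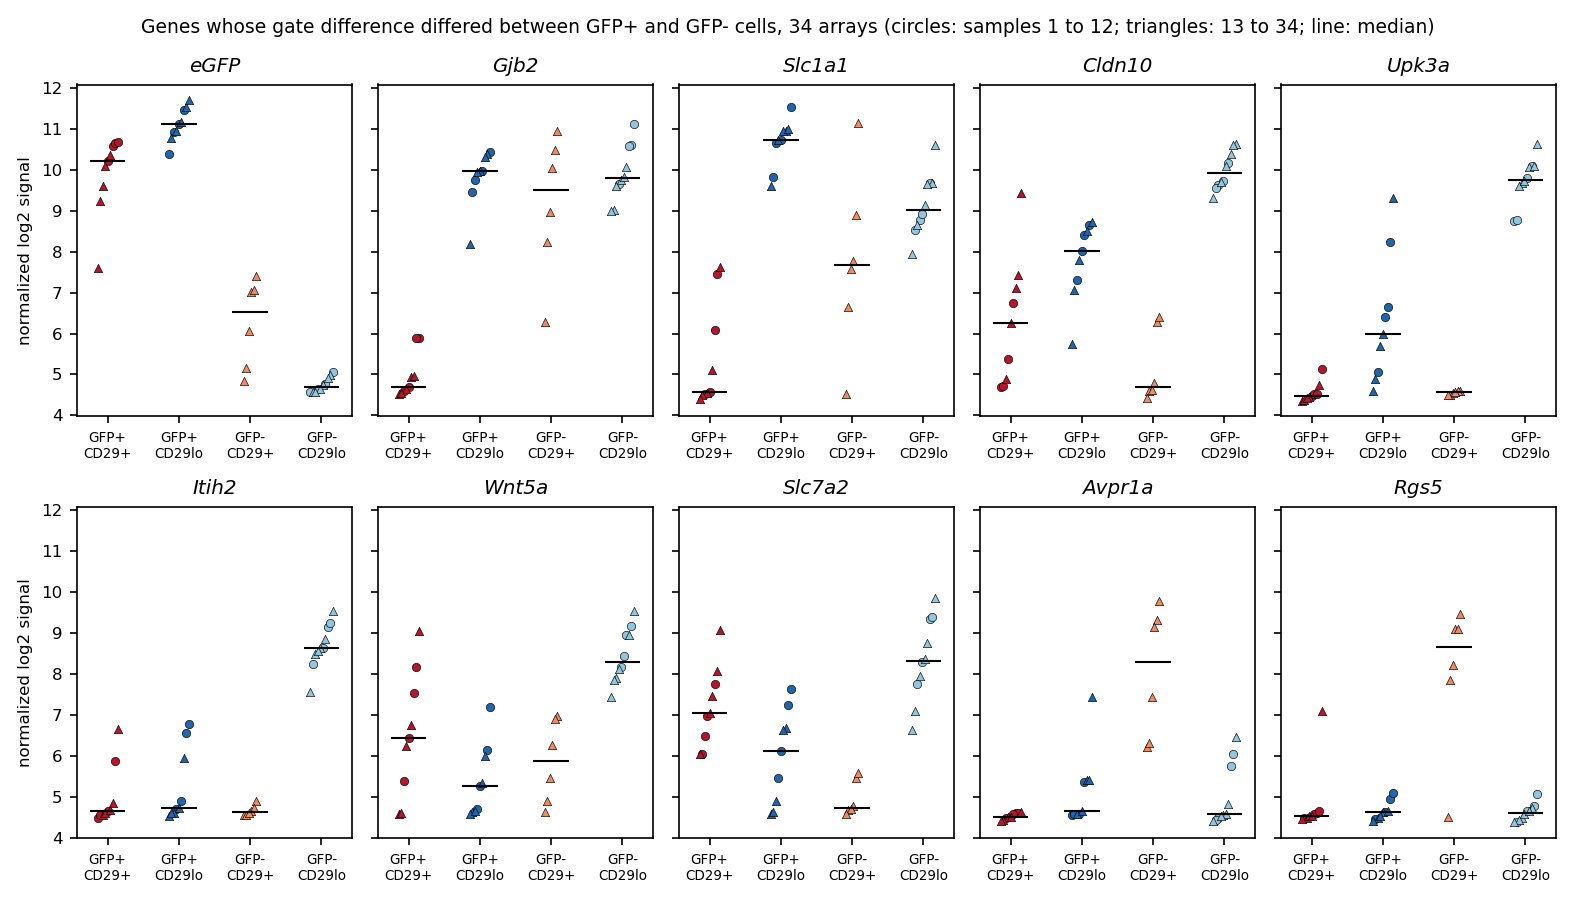
Normalized log2 signal of eGFP and 9 genes whose gate difference differed between GFP+ and GFP- cells, on all 34 arrays in 4 groups. Gjb2 is lowest on the GFP+ CD24+/CD29+ arrays (4.53 to 5.90), and Upk3a and Itih2 are highest in GFP- CD24+/CD29lo cells.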

How the data were processed

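Biotin-labelled cDNA of sorted MECs, amplified from total RNA, was measured by the authors on Illumina WG-6 bead arrays. The deposited file of probe intensity values was not normalized, and beside each intensity it held a detection value deposited as a fraction, taken here as 1 minus the detection p. A second deposited table held log2 values processed by the authors, and served only as an alternative. Per the methods these data were quantile normalized and adjusted for collection date, though the exact steps behind that table are not given in the sources used here. The submitters' notes name R 2.14.1.

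The intensities of the 18 GFP+ arrays were background-corrected, offset by 16, quantile normalized and log2-transformed with neqc (limma 3.58.1 in R 4.3.3, with data.table, version 1.17.8). A probe stayed in the test if, in either gate, 80% or more of its signals lay above the 20th percentile of the array. Gates were compared with limma, the array set (samples 1 to 12, or 13 to 34) as a fixed term, and p-values were adjusted by Benjamini-Hochberg over all 30205 probes kept. The set by gate interaction used the same arrays, and the comparison with GFP- cells all 34 arrays, normalized together. Whether the array sets are the collection dates of the methods is not stated. Arrays give no count depth, and their number limits the precision.

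Of 45281 probes 34885 had 1 gene symbol in the platform annotation, 18 several and 10378 none, and a gene was read at its tested probe of highest mean. Named are the 15 largest differences in each direction, up to 4 called members in each direction of each of 43 gene lists (or the 2 of highest mean where none was called), all gate, keratin and cell type markers, and up to 6 genes in each direction of the interaction and the GFP comparison. The lists hold 618 genes, of which 508 were tested. Some genes are in more than 1 list, so the counts of different lists are not independent. The members and lists were chosen with earlier results of these data known. The eGFP probe was identified by its name in the study's supplement.

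Alternatives were no set term, each set alone, no background correction, scaling to the 75th percentile, the authors' log2 values, the methods' t-test after an empirical Bayes set adjustment in own code, no filter, a detection filter, all 34 arrays, and leaving out each array. The fits were tested on simulated data before use. Figures and promoter searches used Python 3.11.15, pandas 2.3.3 and matplotlib 3.10.9.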

Additional observations from a re-analysis of the deposited data

Results flagged for a closer look

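Of 406 sets of 9 values (203 genes named in the text, in each gate), 48 held a highest or lowest array whose gap to the next exceeded Dixon's 95% critical value for 9 samples. For normally distributed values chance would give about 1 in 20. Whether these values were so distributed was not tested, so the count is not read as an excess over chance. Of the 48, 21 lay in CD24+/CD29+ and 27 in CD24+/CD29lo cells, 13 of the latter on array 22. Detection was not part of this search, so some of the values below, such as those of Pparg, were not above background.

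Array 22 was the lowest CD24+/CD29lo array for the luminal genes Tfcp2l1 (6.29, next 9.63), Pkp2 (4.71, next 8.04), Tmprss2 (5.80) and Gjb2 (8.12, next 9.38), and for Gyg (4.62), Itgav (5.80) and Nupr1 (9.90, next 10.73). It was the highest for Cxcl12 (7.55, next 5.45), Dll1 (6.48), Ccnd1 (12.93), Fgf1 (5.36), Ereg (5.29) and Prom1 (6.27). The lowest detected signal on array 22 was 6.03. Its values for Pkp2, Tmprss2, Gyg, Itgav, Fgf1 and Ereg lay under that, and so were not above background. Array 16 was the lowest for Krt14 (5.97, next 8.45) and Acta2 (5.84, next 8.94) and the highest for Thy1 (7.34) and Notch4 (5.98). Array 10 was the lowest for the caseins Csn1s1 (8.32, next 10.17) and Csn2 (6.42, next 9.50), which were thus dim on the same array. Array 19 was the highest for Col5a1 (8.40, next 5.44), Bmp7 (5.65) and Avpr1a (7.40). Myc was lowest on array 12 (7.11), Dcpp1 lowest on array 2 (5.43, next 9.43), Fabp4 highest on array 34 (7.39), and Aif1 (8.93) and Pparg (4.83) highest on array 23.

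Among CD24+/CD29+ arrays, array 11 was the highest for Lalba (6.90, next 5.29), Esr1 (7.20, next 5.61), Bglap2 (6.68), Krt6a (5.79) and Cldn3 (5.16) and the lowest for Dcn (5.15, next 7.35). Array 32 was the lowest for Actg2 (9.91, next 10.75), Krt17 (11.60) and Itgav (7.14). Array 9 was the highest for Krt7 (7.02), Sema4d (6.07) and Upk3a (5.13), array 17 for Cldn1 (5.36), Dll4 (5.38) and Pparg (5.20), and array 28 for Lbp (6.97), Tnfsf11 (5.19) and Tmprss2 (5.89). Nupr1 was highest on array 3 (9.04, next 6.52). Array 24 was the lowest for Dkk3 (8.69, next 10.00) and array 15 for eGFP (7.55, next 9.15).

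The gate difference differed between the array sets, by the interaction test, at Col26a1 (3.05), Gria3 (2.90) and 3 probes without a gene name (3.71, 3.09 and 2.23, second set minus first). It differed between GFP+ and GFP- cells, by the test of that difference, at Slc7a2 (4.48), Itih2 (3.65), Wnt5a (3.50), Cldn10 (3.49), Cxcl15 (3.49), Upk3a (3.42), Robo1 (3.18), Jag1 (2.80), Gjb2 (-4.32), Slc1a1 (-3.86), Avpr1a (-3.63), Fscn2 (-3.48), Gyg (-3.41), Rgs5 (-3.25) and eGFP (-2.85). These are fitted sizes, and those of Gria3, Upk3a, Itih2, Cxcl15 and Avpr1a involve a group in which the probe was detected on no array.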

How the results depend on the processing

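The 4155 probes called between the gates numbered 1516 in samples 13 to 34 alone, and 2819 to 4445 under the other alternatives that kept both array sets or used samples 1 to 12. Leaving out each array gave 3741 (without CD24+/CD29+ array 1) to 4425 (without CD24+/CD29lo array 22). The 3053 probes over 2-fold numbered 1387 in samples 13 to 34, 1483 without background correction and 1505 with the authors' log2 values, and 2836 to 3135 with an array left out. The 5 probes whose gate difference depended on the array set numbered 9 without background correction, 12 with the authors' values and 3 to 7 with an array left out. The causes of these changes were not tested. The 102 that depended on GFP numbered 39 in samples 13 to 34 alone and 77 to 104 with an array left out. Of 166 named genes called, 34 lost their call and 1 reversed in samples 1 to 12 and 50 in samples 13 to 34, in fits of fewer arrays, and at most 9 under the other alternatives that left out no array. Klf6 turned to 0.0383 in samples 1 to 12 alone (adjusted p = 0.913) and Col26a1 to -1.10 there (adjusted p = 0.00187), and the cause was not tested. Calls of Cd24a, Esr1, Itgb6, Idi1, Mcm6, Klf6, Dsc3, Col3a1 and Upk3a were lost without some single array. Under alternatives that kept both array sets, the calls of Cd24a, Cdh1, Klf6, Upk3a, Col3a1, Esr1, Cdc20, Mcm6, Idi1 and Dsc3 were each lost under at least 2. No gene list lost more than 1 call without array 22 in a direction, chosen as an alternative after seeing the data. The median difference over all genes moved by less than 0.1 under any scaling (-0.01 to 0.001). No paired analysis was run, because the labels do not say which arrays, if any, came from the same cell preparation. The number of arrays and, for dim probes, the signal over background limit what small differences can be called.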
